A study of Mus musculus with 9 samples.

Results

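Glutamatergic neuron identity was followed through 9 genes in 9 libraries of laser-captured mouse cells. The genes were the rows of the count table whose Ensembl mouse identifier carries the symbol Slc17a7, Slc17a6, Slc30a3, Neurod2, Neurod6, Tbr1, Mef2c, Nrgn or Nrn1. They are 9 of 54838 identifiers in the table, and each symbol matched 1 identifier. Of the 9, 6 passed the filter on low counts and were tested, as were 7959 genes in all. The other 3, Slc30a3, Tbr1 and Nrn1, had too few counts for a test.

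The study captured cells in 3 groups that the labels call overlap, c-fos and mCherry (spelled mCHerry there), with 3 libraries each. Its design text describes a search for genes that differ among CRD-labelled, His-labelled and doubly labelled cells, without saying which of these is overlap, c-fos or mCherry. All libraries came from PFA-fixed frozen tissue. Smart-3SEQ, the library method, reads from the 3' end of transcripts and suits small captured samples. The sources used here give no strain, sex, age, promoter, virus or number of animals, and tie no library to an animal, so the p-values speak only of the spread from library to library, which may be technical. The series title places the cells in the basolateral amygdala, while the labels' cell type field names spermatocytes and their extraction text speaks of testis.

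Excitatory neurons load glutamate into synaptic vesicles with vesicular glutamate transporters, and these transporters are the usual markers of the cell class. Slc17a7 encodes VGLUT1, the main transporter of the cortex, hippocampus and basolateral amygdala, and Slc17a6 encodes VGLUT2, the main one of the thalamus and hypothalamus. Transcription factors of the NeuroD, T-box and MEF2 families set up and maintain this identity in the forebrain, and forebrain excitatory neurons also carry abundant neurogranin in their dendrites.

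Neuronal transcripts were abundant in every library, and spermatocyte markers summed to less than pan-neuronal markers in each. The summed level of 8 pan-neuronal markers ran from 2156 to 3111 CPM (counts scaled to the total count of each library) in overlap, 2732 to 3300 CPM in c-fos and 2062 to 3654 CPM in mCherry libraries. The 15 spermatocyte markers summed to between 97.5 and 377 CPM in overlap, 165 and 238 CPM in c-fos and 30.2 and 104 CPM in mCherry libraries. Of the 15, 9, 8 and 8 were detected in these groups, and Sycp1, Spo11 and Pgk2 had no count in any library. Oligodendrocyte markers, 10 genes, summed to between 2464 and 4555 CPM in overlap, 2814 and 4220 CPM in c-fos and 2052 and 6012 CPM in mCherry libraries, so RNA of cells other than neurons was present in all of them. Total counts ran from 90091 to 429317 per library, and 3 counts corresponded to 33.3 CPM in the shallowest library and 6.99 CPM in the deepest. Libraries overlap 1 and mCherry 3 stood apart, with insulin transcripts at 19647 and 8106 CPM against 247 to 990 CPM in the other 7, and values without both are given beside the results of the tested genes and lists.

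The 4 genes on which the results below turn are the vesicular transporters Slc17a7 (ENSMUSG00000070570) and Slc17a6 (ENSMUSG00000030500), whose balance comes first, and Neurod6 (ENSMUSG00000037984) and Nrgn (ENSMUSG00000053310), which had the smallest p-values. The 250 bases upstream of the annotated start of each are shown here, read on the strand of the gene from RefSeq (GRCm38.p6), where 8 of the 9 genes had an entry and Nrn1 had none. For Slc17a6, which has 2 annotated starts, the upstream one was taken. NeuroD proteins bind E-boxes, among them CAGCTG and CAGATG, and capitals mark any match to these 2 motifs on either strand.
Slc17a7, chr7:45163671-45163920, plus strand: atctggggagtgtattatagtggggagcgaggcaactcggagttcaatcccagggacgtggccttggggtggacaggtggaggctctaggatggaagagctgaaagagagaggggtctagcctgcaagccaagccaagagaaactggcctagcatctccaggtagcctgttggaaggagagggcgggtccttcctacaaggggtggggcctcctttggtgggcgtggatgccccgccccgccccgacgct
Slc17a6, chr7:51621580-51621829, plus strand: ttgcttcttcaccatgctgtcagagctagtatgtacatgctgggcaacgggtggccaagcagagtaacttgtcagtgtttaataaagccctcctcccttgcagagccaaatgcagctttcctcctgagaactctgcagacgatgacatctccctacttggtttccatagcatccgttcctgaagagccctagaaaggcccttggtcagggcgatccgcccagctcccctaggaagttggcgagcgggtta
Neurod6, chr6:55681264-55681513, minus strand: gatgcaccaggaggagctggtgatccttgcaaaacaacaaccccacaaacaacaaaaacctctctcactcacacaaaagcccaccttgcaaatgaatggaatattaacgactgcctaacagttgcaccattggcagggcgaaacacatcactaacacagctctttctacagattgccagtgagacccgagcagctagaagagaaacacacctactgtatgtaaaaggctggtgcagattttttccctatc
Nrgn, chr9:37552746-37552995, minus strand: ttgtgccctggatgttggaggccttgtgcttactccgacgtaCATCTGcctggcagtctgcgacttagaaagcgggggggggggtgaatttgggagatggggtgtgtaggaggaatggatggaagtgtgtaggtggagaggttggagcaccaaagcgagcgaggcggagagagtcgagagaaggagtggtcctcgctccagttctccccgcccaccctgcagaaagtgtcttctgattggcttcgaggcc
Nrgn held 1 match to CAGATG, read as CATCTG on the strand shown, and the other 3 windows held none. Of 32851 RefSeq upstream windows of this length, 13.0% held CAGCTG and 14.4% held CAGATG, so a match in 1 of these 4 windows describes its letters only.

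The mean share of Slc17a7 among vesicular transporter counts was lowest in overlap, intermediate in c-fos and highest in mCherry libraries, a difference that did not pass correction. Slc17a7 made up 69.3 ± 6.85% of Slc17a7 plus Slc17a6 counts in overlap, 80.3 ± 8.45% in c-fos and 93.6 ± 2.32% in mCherry libraries (SD, n = 3 each). This share compares libraries and does not depend on how they are scaled to each other. In overlap cells it was 2 of 3 counts in replicate 1, 37 of 48 (77.1%) in replicate 2 and 86 of 134 (64.2%) in replicate 3. In c-fos cells it was 8 of 10 counts (80.0%), 40 of 45 (88.9%) and 54 of 75 (72.0%). In mCherry cells it was 77 of 80 counts (96.2%), 222 of 240 (92.5%) and 23 of 25 (92.0%). Every mCherry library lay above every library of the other two groups, while overlap and c-fos libraries overlapped.

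The share in overlap 1 rests on 3 counts, with an exact binomial 95% interval from 9.43% to 99.2%. For the deepest values the intervals were 55.4% to 72.3% in overlap 3, 60.4% to 81.8% in c-fos 3 and 88.4% to 95.5% in mCherry 2, and they cover counting error only. An exact permutation test of the between-group sum of squares over the 3 groups, with 280 arrangements, gave p = 0.0143, where the smallest possible is 0.00357. Between pairs of groups the difference was -24.3 percentage points for overlap against mCherry and -13.3 points for c-fos against mCherry, each with exact permutation p = 0.1, the smallest that 3 libraries against 3 allow, and -11.0 points for overlap against c-fos (exact permutation p = 0.2). Adjusted over these 4 tests with the Benjamini-Hochberg method, the exact permutation p over the 3 groups was 0.0571, so the difference did not pass the correction. Without mCherry 3 and overlap 1 the mean shares were 70.6%, 80.3% and 94.4% in overlap, c-fos and mCherry, and the exact permutation p was 0.0952. With counts summed over each group they were 67.6%, 78.5% and 93.3%.

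**Figure D1:**
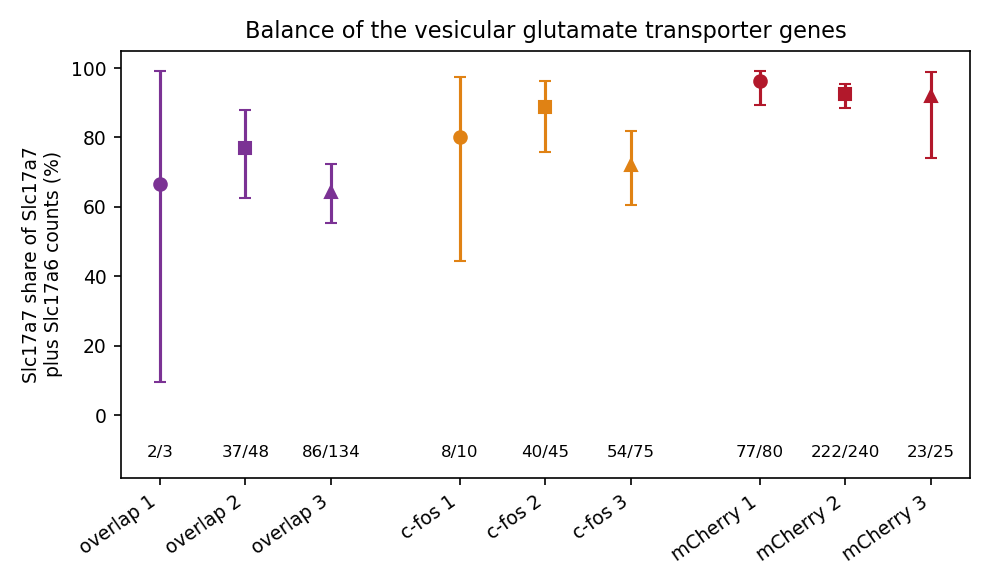
Share of Slc17a7 among Slc17a7 plus Slc17a6 counts in each of 9 libraries (vertical axis, %), with exact binomial 95% intervals as bars and the counts behind each share printed below it. The 3 mCherry libraries sit between 92.0% and 96.2%, above the 3 c-fos libraries (72.0% to 88.9%) and the 3 overlap libraries (64.2% to 77.1%), and the interval of overlap 1 covers most of the axis.

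Against mCherry cells the fold changes of the 2 transporters had opposite signs, and neither passed the test. Slc17a7 stood at 26.2, 171 and 364 TMM-scaled CPM in the 3 overlap libraries, at 77.9, 149.5 and 203 in the c-fos libraries and at 351, 598 and 217 in the mCherry libraries. TMM-scaled CPM are CPM of the tested genes' counts after TMM, a scaling that assumes most genes are level between libraries. The TMM factor was 0.650 in mCherry 3 and 0.969 to 1.17 in the other libraries, so this scale raises the values of mCherry 3 most. Every c-fos library was below every mCherry library on this scale, and overlap 3 lay within the mCherry range. On the total-count scale c-fos 3, at 177 CPM, was above mCherry 3, at 116 CPM, so the groups overlapped there. The log2 fold change was -1.43 ± 0.79 (SE) for c-fos against mCherry (adjusted p = 0.730 in edgeR's quasi-likelihood test) and -1.03 ± 0.78 for overlap against mCherry (adjusted p = 0.591 in edgeR). Without mCherry 3 and overlap 1 these were -1.73 (adjusted p = 0.601 in edgeR) and -0.88 (adjusted p = 0.568). The overlap against mCherry value moved with single libraries, to -1.99 without overlap 3, -0.58 without overlap 1 and -0.59 without mCherry 2, and was -0.28 when scaled to the 200 most abundant genes. Between overlap and c-fos the value was 0.40 ± 0.78 (adjusted p = 0.988 in edgeR), with 0.85 without those libraries, 0.87 without overlap 1, 0.07 without c-fos 1, 0.74 without c-fos 3 and -0.48 without overlap 3.

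Slc17a6 was carried by fewer counts and by single libraries. Its levels were 13.1, 50.7 and 203 TMM-scaled CPM in overlap, 19.5, 18.7 and 78.8 in c-fos and 13.7, 48.5 and 18.9 in mCherry libraries. Overlap 3 and c-fos 3 were the highest of their groups, and the groups overlapped in every comparison. The log2 fold change was 1.69 ± 1.22 for overlap against mCherry (adjusted p = 0.564 in edgeR), 0.51 ± 1.21 for c-fos against mCherry (adjusted p = 0.986) and 1.19 ± 1.20 for overlap against c-fos (adjusted p = 0.982). Without overlap 3 the overlap against mCherry value was 0.20, and without c-fos 3 the c-fos against mCherry value was -0.51. Without mCherry 3 and overlap 1 the values were 1.93, 0.29 and 1.64 for the 3 comparisons as listed. The share of Slc17a7 in overlap cells without overlap 3 was 71.9%, against 69.3% with it. In these pooled captures fewer cells of a type and less RNA per cell cannot be told apart.

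Slc30a3 encodes ZnT3, the transporter that loads zinc into the vesicles of a subset of glutamatergic terminals. It had 0, 11 and 1 counts in the overlap libraries, 2, 0 and 0 in the c-fos libraries and 3, 0 and 0 in the mCherry libraries. It was found in 4 of 9 libraries, 11 of its 17 counts came from overlap 2, and no difference was detectable at this depth.

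**Figure D2:**
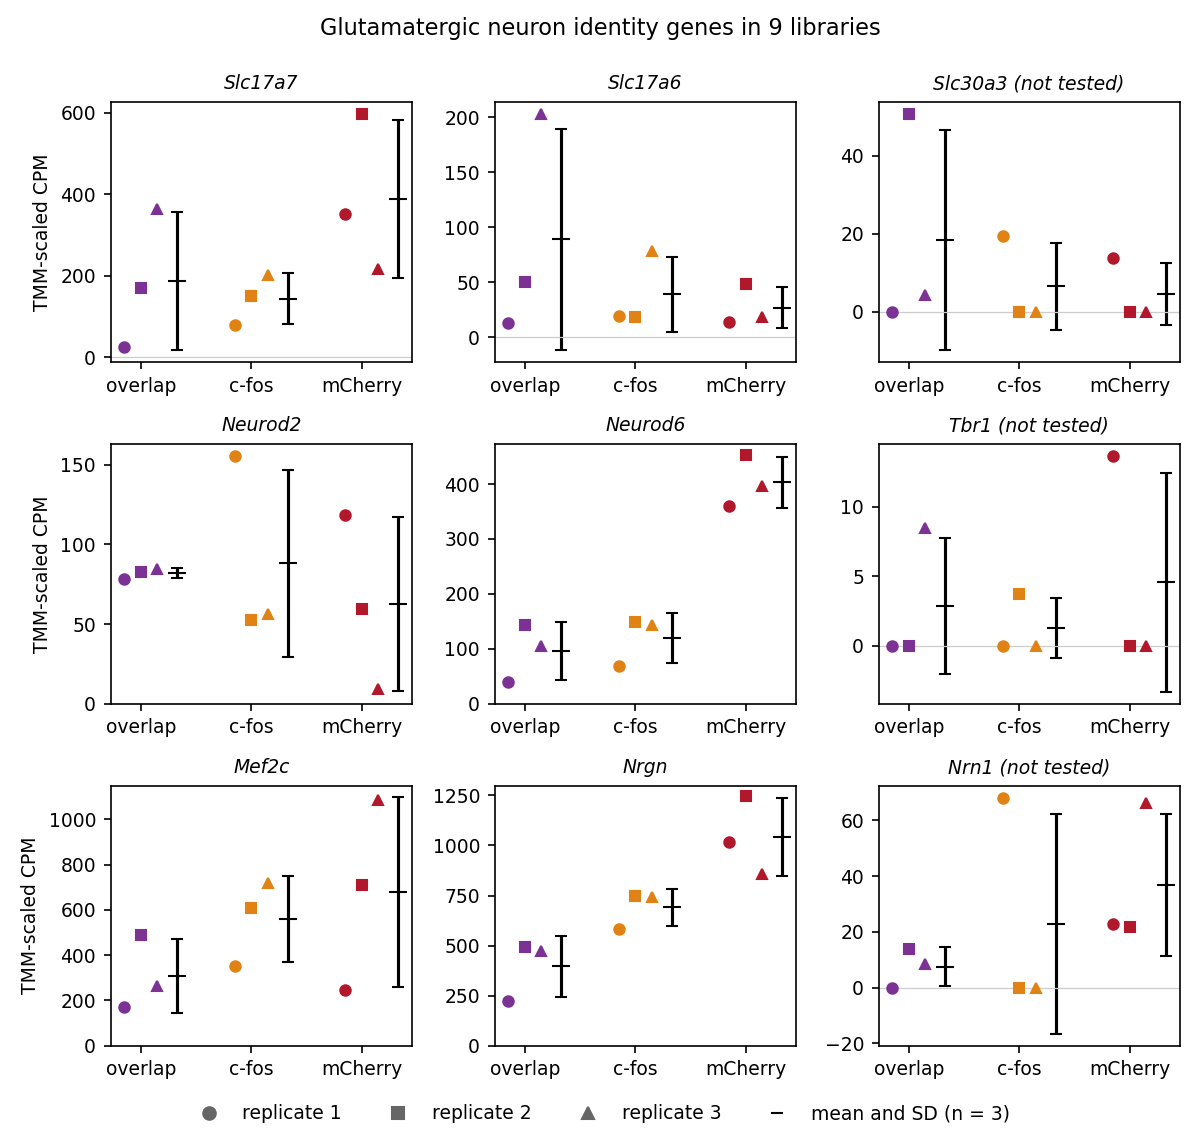
Level of each of the 9 glutamatergic identity genes (vertical axes, TMM-scaled CPM, each panel with its own range) in overlap, c-fos and mCherry libraries, with 1 point per library, replicates told apart by symbol, and the mean with SD as a bar, which can reach below 0. All 3 mCherry libraries lie above all others for Neurod6 (360 to 453 in mCherry, 39.2 to 149.5 in the others) and Nrgn (859 to 1247 in mCherry, 222 to 748 in the others), while Neurod2 and Mef2c overlap.

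Among the transcription factors, Neurod6 had lower values in overlap and c-fos cells than in mCherry cells. Neurod6, also known as Nex or Math2, is a basic helix-loop-helix factor largely restricted to pyramidal neurons of the forebrain. It stood at 39.2, 143 and 106 TMM-scaled CPM in overlap libraries, 68.2, 149.5 and 143 in c-fos libraries and 360, 453 and 396 in mCherry libraries. No overlap or c-fos library reached the mCherry range, and the overlap and c-fos groups overlapped each other. The group means were 96.0 ± 52.6 in overlap, 120.1 ± 45.1 in c-fos and 403 ± 46.5 in mCherry (SD, n = 3 each). The separation from mCherry was also present on the total-count scale, at 33.3 to 137 CPM in overlap, 64.2 to 134 CPM in c-fos and 211 to 391 CPM in mCherry.

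The log2 fold change of Neurod6 was -2.03 ± 0.69 (95% interval -3.50 to -0.55) for overlap against mCherry and -1.73 ± 0.68 (-3.18 to -0.27) for c-fos against mCherry. Neither passed over all genes in edgeR, with adjusted p = 0.246 and unadjusted p = 0.0101 for overlap and adjusted p = 0.567 and unadjusted p = 0.0228 for c-fos. DESeq2 gave adjusted p of 0.0843 and 0.228 for them. Over all 18 alternative fits the overlap value ran from -2.48 to -1.30 (adjusted p 0.0843 to 0.519) and the c-fos value from -1.94 to -1.39 (adjusted p 0.228 to 1.00). Without mCherry 3 and overlap 1 both were -1.76, with edgeR adjusted p of 0.304 and 0.601. Between overlap and c-fos the value was -0.30 ± 0.68 (95% interval -1.74 to 1.14, adjusted p = 0.988 in edgeR).

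Neurod2, a related factor that acts in the same lineage, showed no separation between the groups. It stood at 78.5, 83.0 and 84.8 TMM-scaled CPM in overlap libraries, 156, 52.3 and 56.3 in c-fos libraries and 119, 59.3 and 9.44 in mCherry libraries. The groups overlapped, mCherry 3 was the lowest of all with 1 count, and the spread within c-fos and mCherry exceeded the differences between the means. The log2 fold change was 0.36 ± 0.97 for overlap against mCherry (adjusted p = 0.911 in edgeR) and 0.43 ± 0.97 for c-fos against mCherry (adjusted p = 0.985), and both turned negative without mCherry 3, to -0.13 and -0.08, and without mCherry 3 and overlap 1, to -0.12 and -0.10. Between overlap and c-fos it was -0.07 ± 0.98 (adjusted p = 0.996 in edgeR).

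The 2 NeuroD genes can be set against each other within a library, a share chosen after their values were seen and given without a test. Neurod6 made up 50.7 ± 15.5% of Neurod6 plus Neurod2 counts in overlap, 58.7 ± 24.5% in c-fos and 87.1 ± 11.3% in mCherry libraries (SD, n = 3 each). It was 33.3%, 63.3% and 55.6% in the overlap libraries, 30.4%, 74.1% and 71.7% in the c-fos libraries and 75.2%, 88.4% and 97.7% in the mCherry libraries. All mCherry libraries were the highest, although mCherry 1 and c-fos 2 lay at 75.2% and 74.1%, with overlapping counting intervals (65.9% to 83.1% and 60.3% to 85.0%). The denominators ran from 9 counts in overlap 1 to 190 in mCherry 2.

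Mef2c, a MADS-box factor of cortical excitatory neurons that also acts in interneurons, microglia and endothelium, varied widely within groups. It stood at 170, 489 and 263 TMM-scaled CPM in overlap libraries, 350.5, 609 and 720.5 in c-fos libraries and 246, 711 and 1085 in mCherry libraries. Every library but overlap 1 lay within the mCherry range. The log2 fold change was -1.13 ± 0.58 for overlap against mCherry (adjusted p = 0.409 in edgeR), -0.86 ± 0.58 for overlap against c-fos (adjusted p = 0.959) and -0.27 ± 0.57 for c-fos against mCherry (adjusted p = 0.985). Without mCherry 3 and overlap 1 these were -0.41, -0.59 and 0.18. The overlap against mCherry value was -1.70 without overlap 2, -0.66 without mCherry 3, -0.70 with total-count scaling and -0.40 when scaled to the 200 most abundant genes. Without overlap 2 the overlap against c-fos value was -1.41. Markers of microglia, in which Mef2c is also expressed, summed to between 204 and 511 CPM in overlap, 154 and 468 CPM in c-fos and 121 and 273 CPM in mCherry libraries, with 4, 6 and 6 of the 8 genes detected and P2ry12 at 0 in every library. Their part in the level of Mef2c was not tested.

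Tbr1, a T-box factor of deep-layer cortical and amygdalar projection neurons, was close to absent from these libraries. It had 2 counts in overlap cells, 1 in c-fos cells and 3 in mCherry cells, each from 1 library. These sums are at or below 3 counts, the limit that a count of 0 allows, so no fold is given.

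Of the dendritic and secreted products only Nrgn could be tested. Nrgn encodes neurogranin, a postsynaptic protein that binds calmodulin at low calcium and is typical of forebrain excitatory neurons. It stood at 222, 493 and 475 TMM-scaled CPM in overlap libraries, 584, 748 and 743 in c-fos libraries and 1017, 1247 and 859 in mCherry libraries. On this scale no 2 groups overlapped, with overlap lowest, c-fos between and mCherry highest. On the total-count scale mCherry 3, at 458 CPM, was below overlap 2, at 474 CPM, and below all c-fos libraries, so mCherry was apart from neither group there. Overlap lay below c-fos on both scales.

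The log2 fold change of Nrgn was -1.38 ± 0.42 (95% interval -2.27 to -0.49) for overlap against mCherry, -0.59 ± 0.41 (-1.46 to 0.28) for c-fos against mCherry and -0.79 ± 0.42 (-1.67 to 0.09) for overlap against c-fos. None passed over all genes in edgeR, with adjusted p of 0.218, 0.829 and 0.944, and the unadjusted edgeR p of the first was 0.00461. Over all 18 alternative fits the overlap against mCherry value ran from -1.63 to -0.66 (adjusted p 0.137 to 0.520), with -0.66 when scaled to the 200 most abundant genes. Without mCherry 3 and overlap 1 the values were -1.28, -0.75 and -0.52, in the same order.

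Nrn1 encodes neuritin, a small secreted or membrane-anchored protein that promotes neurite growth and is itself induced by activity. It had 0, 3 and 2 counts in the overlap libraries, 7, 0 and 0 in the c-fos libraries and 5, 8 and 7 in the mCherry libraries. All mCherry libraries held it, against 2 of 3 overlap libraries and 1 of 3 c-fos libraries, from 32 counts in all, and it was not tested. Nrn1 lies opposite Fars2, which had 123 counts, and Slc30a3 opposite Dnajc5g, which had 7. How strand was used in the counting is not stated in these sources, so reads of such pairs cannot be told apart. Of the tested identity genes, Slc17a7 and Slc17a6 overlapped only annotated genes without a count, and Neurod2, Neurod6, Mef2c and Nrgn overlapped none, in GENCODE M21.

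As a list, 0 of the 6 tested genes passed in any comparison in edgeR, and DESeq2 also called 0. For overlap against mCherry 4 of 6 had negative fold changes, against 51.3% of the 7959 tested genes, and their median on the log2 scale was -1.08, beside -0.05 over all of these genes. The list had 2 genes lower at an unadjusted p under 0.05, Neurod6 and Nrgn, against 7.69% of all tested genes, and 0 higher, against 6.31% (14% in either direction). EdgeR called 0.0251% of all genes at an adjusted p under 0.05, the long noncoding RNAs Meg3 and Malat1. For c-fos against mCherry 4 of 6 were negative, against 50.3% of all, with a median of -0.43, beside -0.01 over all tested genes. Of the 6, 1 gene was lower at an unadjusted p under 0.05, Neurod6, against 4.64% of all, and 0 higher, against 3.3% (7.94% in either direction), and edgeR called 0%. Between overlap and c-fos 4 of 6 were negative, against 49.2% of all, with a median of -0.18, beside 0.02 over all genes. No identity gene had an unadjusted p under 0.05, against 2.93% of all lower, 2.17% higher and 5.1% in either direction, and edgeR called 0%. Both comparisons with mCherry share its 3 libraries, so they are not independent of each other. The medians of the 6 genes without mCherry 3 and overlap 1 were -0.65, -0.43 and -0.01 for overlap against mCherry, c-fos against mCherry and overlap against c-fos, beside 0.06, 0.02 and 0.02 over all genes then tested. In that fit 2, 3 and 0 of the 6 were lower at an unadjusted edgeR p under 0.05, and 0 were higher. Over all genes 5.55%, 2.36% and 4.45% were lower (11.2%, 5.64% and 8.3% in either direction). For c-fos against mCherry the 3 were Slc17a7, Neurod6 and Nrgn, and 0 passed. When scaled to the 200 most abundant genes the medians were -0.34, -0.09 and 0.17, beside 0.64, 0.34 and 0.38 over all genes. With total-count scaling the c-fos against mCherry median was -0.11, beside 0.25 over all genes.

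Groups that did not overlap were counted on both scales. For overlap against mCherry 2 of 6 tested genes were lower without overlap, Neurod6 and Nrgn, against 11% of all tested genes, and 1 of 6, Neurod6, on the total-count scale, against 6.61%. For c-fos against mCherry 3 of 6 were lower, Slc17a7, Neurod6 and Nrgn, against 6.82%, and 1 of 6, Neurod6, on the total-count scale, against 3.74%. For overlap against c-fos 1 of 6 was lower, Nrgn, against 8.61%, and again Nrgn alone on the total-count scale, against 8.73%. None of the 6 was higher in this sense on the TMM scale, against 6.37% of all for overlap against mCherry, 9.02% for c-fos against mCherry and 3.96% for overlap against c-fos. With mCherry 3 and overlap 1 left out, Neurod6 and Nrgn were lower in overlap than in mCherry on both scales, against 23.2% of all on the TMM scale and 21.5% on the total-count scale. Slc17a7, Neurod6 and Nrgn were then lower in c-fos than in mCherry on both scales, against 12.8% and 11.1% of all, and Nrgn was lower in overlap than in c-fos, against 13.5% and 13.4%.

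Summed over all 9 genes, the level was 549, 1494 and 1517 TMM-scaled CPM in overlap libraries, 1344, 1731 and 1944 in c-fos libraries and 2157, 3138 and 2652 in mCherry libraries. On that scale every mCherry library was above all others. On the total-count scale the sums were 466 to 1436 CPM in overlap libraries, 1265 to 1701 CPM in c-fos libraries and 1413 to 2714 CPM in mCherry libraries, and the ranges overlapped. Nrgn and Mef2c weighed most in these sums. They had 236 and 181 of 724 counts in overlap, 458 and 391 of 1119 in c-fos and 777 and 433 of 1919 in mCherry.

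**Figure D3:**
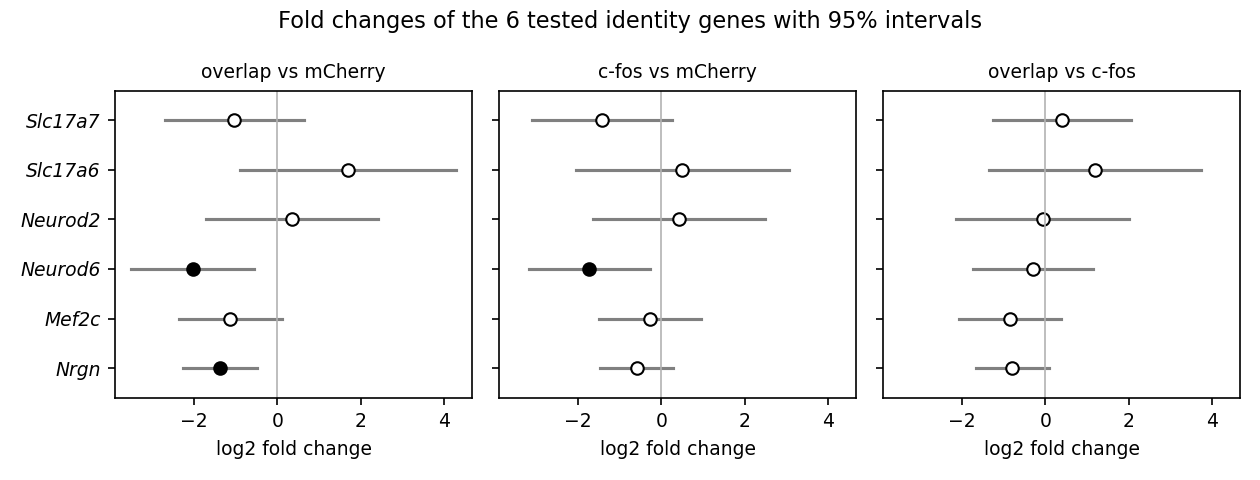
Log2 fold change (horizontal axis) of the 6 tested identity genes in overlap against mCherry, c-fos against mCherry and overlap against c-fos cells, with 95% intervals from edgeR as lines. Filled points have an unadjusted p under 0.05 and none passed over all genes, with Neurod6 at -2.03 and -1.73 and Nrgn at -1.38 the filled ones.

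A wider list of 40 excitatory neuron genes, of which 31 were tested, had mostly negative fold changes against mCherry, and none passed. For overlap against mCherry 24 of 31 had negative fold changes, against 51.3% of all tested genes, with a median of -0.53. For c-fos against mCherry it was 23 of 31, against 50.3%, with a median of -0.48, and for overlap against c-fos 17 of 31, against 49.2%, with a median of -0.08. In edgeR 0 passed in either direction in each comparison. At an unadjusted edgeR p under 0.05, 4 were lower and 2 higher in overlap than in mCherry cells, against 7.69% and 6.31% of all tested genes. In c-fos cells 5 were lower and 1 higher than in mCherry cells, against 4.64% and 3.3%, and between overlap and c-fos there were 0, against 5.1% in either direction. The medians without mCherry 3 and overlap 1 were -0.90, -0.34 and -0.27 in the 3 comparisons, with 26, 22 and 20 of the 31 negative, against 48.2%, 49% and 49.4% of all genes then tested. The unadjusted edgeR p was then under 0.05 for 5 genes, 7 genes and 2 genes, against 11.2%, 5.64% and 8.3% of all, and 0 passed. They were 5 lower and 0 higher for overlap against mCherry, 6 and 1 for c-fos against mCherry, and 1 and 1 for overlap against c-fos. The 6 most abundant of the list were Olfm1, Rtn4r, Camk2b, Baiap2, Arpp21 and Lingo1. Slc17a8, which encodes VGLUT3, had no count in any library.

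Olfm1, a secreted olfactomedin glycoprotein of neurons, had 915, 1430 and 1399 TMM-scaled CPM in overlap libraries, 1071, 1380 and 1497 in c-fos libraries and 2640, 2659 and 3661 in mCherry libraries, with mCherry above both other groups on either scale. Its log2 fold change was -1.26 ± 0.28 for overlap against mCherry (adjusted p = 0.154 in edgeR) and -1.18 ± 0.28 for c-fos against mCherry (adjusted p = 0.567). Rtn4r, the Nogo receptor, stood at -0.91 ± 0.42 and -0.99 ± 0.42 in the same comparisons (adjusted p = 0.350 and 0.572 in edgeR). Camk2b, a subunit of the calcium- and calmodulin-dependent kinase of the postsynaptic density, stood at -0.90 ± 0.46 and -0.48 ± 0.45. Baiap2, a scaffold of dendritic spines, stood at 0.00 and 0.10, Arpp21 at -0.11 and 0.41, and the Nogo receptor partner Lingo1 at 0.46 and -0.28, each with an error of 0.52 to 0.61. Leaving out mCherry 3 and overlap 1, the values for overlap against mCherry and c-fos against mCherry were -0.96 and -1.05 for Olfm1, -0.71 and -0.96 for Rtn4r, -1.12 and -0.61 for Camk2b, -0.39 and 0.11 for Baiap2, -0.03 and 0.07 for Arpp21 and -0.13 and -0.17 for Lingo1. The sign of Lingo1 in overlap against mCherry thus turned without those libraries.

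Other genes of the wider list were picked out after their values were seen, for an unadjusted edgeR p under 0.05. Against mCherry cells, Enc1, an actin-binding protein of neurons, had -2.75 ± 0.69 in overlap and -1.79 ± 0.66 in c-fos. Rspo2, a Wnt pathway ligand that marks one set of basolateral amygdala neurons, had -1.75 ± 0.79 in overlap and -0.64 ± 0.76 in c-fos. The deep-layer factor Fezf2 had 4.20 ± 1.72 and 2.79 ± 1.65, and the layer 4 factor Rorb 3.26 ± 1.47 and 2.45 ± 1.44, in the same order. In c-fos cells Vsnl1 had -1.87 ± 0.74, Mef2d, a relative of Mef2c, -1.68 ± 0.67 and Foxp2 1.77 ± 0.79, against -0.34 ± 0.72, -0.67 ± 0.65 and 0.39 ± 0.78 in overlap. The adjusted p of these 7 genes ran from 0.172 to 0.951 in edgeR in these comparisons, and whether overlap and c-fos differ for them is the third comparison, in which none had an unadjusted p under 0.05. When mCherry 3 and overlap 1 were left out, Rspo2, Fezf2 and Rorb lost the unadjusted edgeR p under 0.05 in overlap against mCherry. Their errors there were 0.80, 2.21 and 1.94. Enc1 kept an unadjusted edgeR p under 0.05 against mCherry in overlap and c-fos, and Vsnl1, Mef2d and Foxp2 kept one in c-fos. The values against mCherry in overlap and c-fos were then -2.32 and -1.58 for Enc1 and -0.94 and -0.15 for Rspo2. For Fezf2 they were 2.90 and 2.45, and for Rorb 2.89 and 2.05. They were -0.30 and -1.82 for Vsnl1, -0.999 and -1.53 for Mef2d and 0.47 and 1.46 for Foxp2, and for Vsnl1 the overlap against c-fos value then had an unadjusted p of 0.0186 (1.52 on the log2 scale, adjusted p = 0.551 in edgeR).

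**Figure D4:**
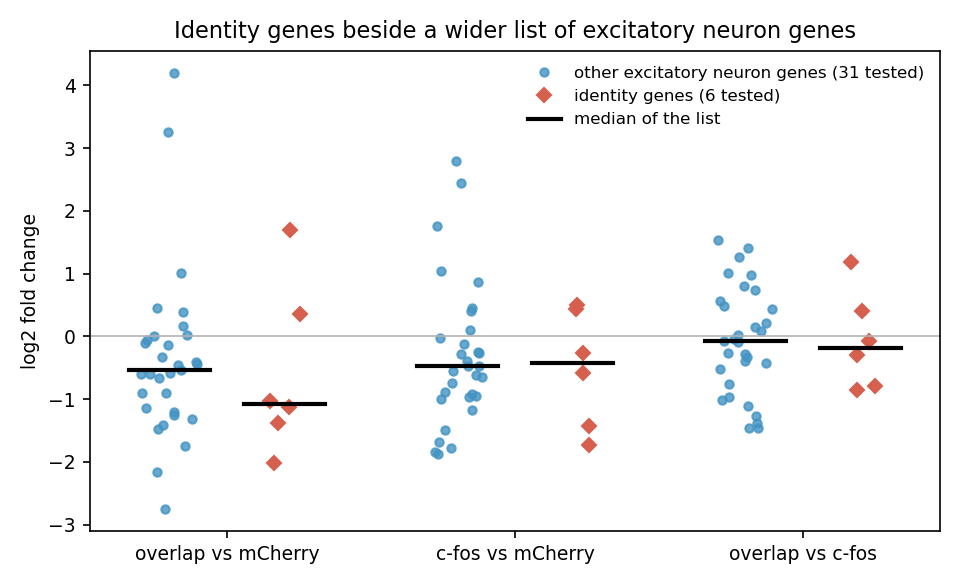
Log2 fold changes (vertical axis) of 31 other excitatory neuron genes (circles) and the 6 tested identity genes (diamonds) in 3 comparisons, with the median of each list as a black bar. Medians of the wider list are -0.53, -0.48 and -0.08 and those of the identity genes -1.08, -0.43 and -0.18 in overlap against mCherry, c-fos against mCherry and overlap against c-fos.

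GABAergic marker transcripts were set beside the identity genes, and no difference in them was called. The 15 markers summed to between 168 and 311 CPM in overlap, 308 and 550 CPM in c-fos and 85.5 and 207 CPM in mCherry libraries, with 8, 11 and 12 of them detected. Every c-fos library was above every mCherry library, overlap shared part of its range with both, and the sums were not tested. The sums left without mCherry 3 and overlap 1 were 168 and 177 CPM in overlap and 127 and 207 CPM in mCherry libraries. Of the 15, 2 could be tested, and in the fit of all 9 libraries 0 had an unadjusted edgeR p under 0.05 in any comparison. Dlx5, Vip and Npy were at 0 in every library. Slc32a1, the vesicular GABA transporter, had 16, 1 and 0 counts in overlap, 30, 26 and 30 in c-fos and 11, 4 and 0 in mCherry libraries. Its log2 fold change was 2.92 ± 1.48 for c-fos against mCherry (adjusted p = 0.666 in edgeR). It was 1.56 ± 1.49 for overlap against mCherry and -1.36 ± 1.42 for overlap against c-fos. The other tested marker stood at 0.14, -1.64 and -1.77 in the same order, so the signs of the 2 differed for overlap against mCherry. Without mCherry 3 and overlap 1 the values of Slc32a1 were 2.41, -3.49 and -5.90. Their unadjusted edgeR p was then 0.0432, 0.0317 and 0.000605 (adjusted p = 0.879, 0.391 and 0.369). The sign of overlap against mCherry thus turned, with 1 and 0 counts in the overlap libraries left. Gad1, which makes most GABA, had 1, 1 and 30 counts in overlap, 3, 1 and 7 in c-fos and 0, 8 and 0 in mCherry libraries. Gad2, the synaptic form of that enzyme, had 0 counts in overlap, 5, 22 and 2 in c-fos and 4, 1 and 0 in mCherry libraries.

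Set against these markers, the 9 identity genes held a smaller share of counts in overlap and c-fos than in mCherry libraries, a description without a test. They made up 60.0%, 89.5% and 87.7% of identity plus GABAergic counts in the overlap libraries, 69.7%, 83.4% and 83.4% in the c-fos libraries and 93.5%, 92.9% and 94.3% in the mCherry libraries. All mCherry libraries were above all others. With overlap 1 the mean was 79.1 ± 16.5% in overlap, against 78.8 ± 7.92% in c-fos and 93.6 ± 0.70% in mCherry (SD, n = 3 each), and without it the overlap mean was 88.6%. Nrgn and Mef2c, the latter also active in interneurons, gave the most identity counts in each group. Markers of striatal and central amygdala projection neurons, mostly GABAergic too, summed to between 266 and 727 CPM in overlap, 676 and 1036 CPM in c-fos and 206 and 646 CPM in mCherry libraries. The part of such cells in the levels of the identity genes was not tested.

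Genes whose pattern over the 9 libraries was most like that of Slc17a7 or Nrgn were found among 2431 named genes with a mean of at least 100 TMM-scaled CPM. Likeness was the root mean square difference of log2 levels, with a pseudocount of 1, after centring each gene on its own mean. For Slc17a7 the nearest were Unc80 (0.49), Rgl1 (0.61) and Trip4 (0.64), where the median gene was at 1.48. For Nrgn they were Herc1 (0.19), Dlg4 (0.26) and Epha5 (0.26), where the median gene was at 1.06. None of these is an identity gene, and Dlg4, which encodes the postsynaptic scaffold PSD-95, had 1021 in overlap, 1517 in c-fos and 2050 TMM-scaled CPM in mCherry cells on average.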

How the data were processed

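Counts per gene were deposited by the authors as 1 table of whole-number counts for the 9 libraries, and all columns were matched to a sample by title. The submitters' processing notes name build mm9 and, as tools, featureCounts, STAR, Trim Galore and UMI-tools. Their versions and settings, the collapsing of molecular identifiers and the use of strand are not stated there. Of 54838 identifiers, 54723 were given a symbol. The other 115 held 0.222% of counts and stayed in the table.

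The deposited counts of all 9 libraries entered 1 fit with edgeR 4.0.16 in R 4.3.3 (filterByExpr with a minimum count of 10, TMM on the tested genes, quasi-likelihood test, Benjamini-Hochberg adjustment over all tested genes, threshold 0.05, two-sided). Levels are TMM-scaled CPM of the tested genes' counts unless a total-count scale is named. Each SE is the fold change over the root of F. Shares have exact (Clopper-Pearson) binomial 95% intervals. They were compared with exact permutation tests, two-sided on the difference of means for 2 groups and on the between-group sum of squares for 3. Reads are not independent molecules unless collapsed, so intervals and floors (3 counts) cover counting error only. Alternatives were other scalings, no filter, DESeq2 1.42.0, 2 groups alone, a replicate block and libraries left out. Simulated counts for c-fos against mCherry gave every gene the same dispersion. At 0.735, the common dispersion observed, the test recovered 0 of 165 genes changed by a log2 fold of 2 and 28.7% of 167 changed by 4. At a dispersion of 0.1 it recovered 75.8% of 178 and 98.4% of 185. Dispersions that differ from gene to gene were not simulated. The named genes were the 9 identity genes, the 6 most abundant of the wider list, any of it that passed, Gad1, Gad2, Slc32a1, and the 3 most alike to Slc17a7 and to Nrgn. Enc1, Rspo2, Fezf2, Rorb, Vsnl1, Mef2d, Foxp2 and Sv2b fall outside that rule and were named after their values were seen. Values of the wider list, of Slc32a1 and of non-overlapping groups without mCherry 3 and overlap 1 were also added after seeing the data. The members and lists were chosen with earlier results of these data known. Promoter windows came from RefSeq on GRCm38.p6, not the authors' build, and no coordinate was used for counting.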

Additional observations from a re-analysis of the deposited data

How the results depend on the processing

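No identity gene was called under any of the 18 alternatives. Genes called over the whole table for c-fos against mCherry were 1 with upper quartile scaling, 1 with total-count scaling, 1 when scaled to the 200 genes of highest abundance, 1 without mCherry 3 and overlap 1, 3 by DESeq2 and 253 with no filter, and from 0 to 1 with single libraries left out. For overlap against mCherry, with 2 called, they were 0 with DESeq2 size factors, upper quartile, total-count or 200-gene scaling, only 2 groups fitted, or without mCherry 3 and overlap 1, 10 with the replicate block, 180 by DESeq2, 344 with no filter, and from 2 to 20 with single libraries left out (20 without mCherry 3, 16 without mCherry 1, 5 without mCherry 2). For overlap against c-fos they were 1 with the 2 groups alone, 1 without mCherry 3 and overlap 1, 3 with the replicate block, 6 by DESeq2, 41 with no filter, and from 0 to 9 with single libraries left out (9 without mCherry 3, 1 without mCherry 1). Same-numbered libraries deviated together by correlations of -0.03 to 0.04, so the numbers are not taken to pair them, and no identity gene was called in the block fit. The cause of these changes was not tested.

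The 200-gene scale moved the median of all genes by 0.69 for overlap against mCherry, 0.35 for c-fos against mCherry and 0.35 for overlap against c-fos, total-count scaling by 0.28, 0.26 and 0.00, DESeq2 size factors by 0.23, 0.01 and 0.22, and upper quartile scaling by -0.05, 0.12 and -0.18. Signs turned in 20 of 323 alternative fold changes, none of them past the threshold. Slc17a6 could not be fitted for c-fos against mCherry with those 2 groups alone, where the filter removed it. For c-fos against mCherry Mef2c turned to 0.11 with total-count and 0.078 with 200-gene scaling, 0.19 without mCherry 3 and 0.18 without mCherry 3 and overlap 1. Neurod2 turned there to -0.076 without mCherry 3, -0.24 without c-fos 1 and -0.098 without mCherry 3 and overlap 1, and Slc17a6 to -0.51 without c-fos 3. For overlap against mCherry Neurod2 turned to -0.13 without mCherry 3 and -0.12 without mCherry 3 and overlap 1. For overlap against c-fos Neurod2 turned to 0.13 with DESeq2 size factors, 0.15 by DESeq2, 0.25 with 200-gene scaling, 0.19 with the replicate block and 0.55 without c-fos 1, and Neurod6 to 0.095 with 200-gene scaling, 0.025 without overlap 1 and 0.0085 without mCherry 3 and overlap 1. Without overlap 3 Slc17a7 turned to -0.48 and Slc17a6 to -0.22. With single libraries left out the ranges were, for c-fos against mCherry, -0.51 to 1.27 for Slc17a6, -0.24 to 1.18 for Neurod2 and -0.68 to 0.19 for Mef2c, for overlap against mCherry -0.13 to 1.12 for Neurod2, and for overlap against c-fos -0.48 to 0.87 for Slc17a7, -0.22 to 2.24 for Slc17a6, -0.32 to 0.55 for Neurod2 and -0.74 to 0.025 for Neurod6.

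The exact permutation p of the Slc17a7 share over the 3 groups ran from 0.00714 to 0.0714 with single libraries left out (0.0714 without mCherry 1, 0.05 without mCherry 2, 0.0536 without overlap 1 or overlap 3) and was 0.0952 without mCherry 3 and overlap 1, each time with fewer splits to draw on. Depth limits Tbr1, Slc30a3, Nrn1 and every share in overlap 1.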
